A study of Mus with 4 samples.

Results

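The genes described here mark the myeloid cells that surround natural killer (NK) cells in the liver, namely Kupffer cells and other macrophages, monocytes and neutrophils. They are 32 genes listed by name, 16 of macrophages and monocytes, 13 of neutrophils and 3 of innate sensing that both kinds of cell share. Each was read from the row of the deposited table that names that gene alone, with no filter on level. All 32 had such a row, out of 30142 genes with one in the table.

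The study sorted DX5-negative NK cells from the livers of female C57BL/6 mice aged 6 to 8 weeks and measured their RNA on 4 Affymetrix arrays. The WT group has 2 arrays from wild-type mice. The dnTGFbRII group has 2 arrays from mice of the same strain that carry a dominant-negative TGF-beta receptor II, and the study asked how liver-resident NK cells change in that inflamed liver. A receptor of this kind binds TGF-beta without passing on its signal. The labels leave unsaid which promoter drives the transgene, whether mice were pooled, and whether each array had its own mouse or sort. The spread behind every p-value is therefore that of these 4 samples alone and may be technical.

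Kupffer cells are the macrophages resident in the liver sinusoids. They carry scavenger and complement receptors with which they clear particles and dying cells from the blood, and they are a main source of complement C1q. Monocytes circulate and enter inflamed liver, where they can become macrophages. Neutrophils are made in the bone marrow in stages. Primary granule proteins are transcribed in the earliest stage, secondary and tertiary granule proteins later, and the receptors that guide the mature cell last. None of these cell types is an NK cell. In a sorted NK cell sample a value of their genes can come from other cells, from NK cells themselves or from background signal alone. Arrays of bulk RNA cannot separate these sources. Fewer cells of a type and less RNA per cell cannot be told apart in these data either.

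NK cell markers had a high mean on every array, though not every marker was high. The mean over 20 markers of liver NK cells and type 1 innate lymphoid cells lay between 14.35 and 14.64 on the log2 scale. Cxcr6, named outside the naming rule, ranged from 6.07 to 6.73. Eomes measured 6.78 and 6.81 on the WT arrays and 10.30 and 8.87 on the dnTGFbRII arrays. At an unadjusted p under 0.05 in limma, Eomes and Itga2 were higher in dnTGFbRII cells (2.62% of all genes) and 0 of the 20 lower (1.56% of all genes). Ncr1, which encodes the NK receptor NKp46 and was named as a defining marker outside the naming rule, measured 16.99 and 17.17 on WT replicates 1 and 2 and 16.87 and 17.19 on dnTGFbRII replicates 1 and 2. The array medians lay between 4.20 and 4.26, and the 23 background control probe sets had medians between 2.94 and 3.11 and reached at most 6.21. The table has no detection call. On every array, 24 of the 32 members lay at or below the brightest background control set of that array, as did 59.7% of all genes. The mean level of 16 of the 32 exceeded 4.217, the median over all rows of the table, as did that of 53.9% of all genes.

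**Figure D1:**
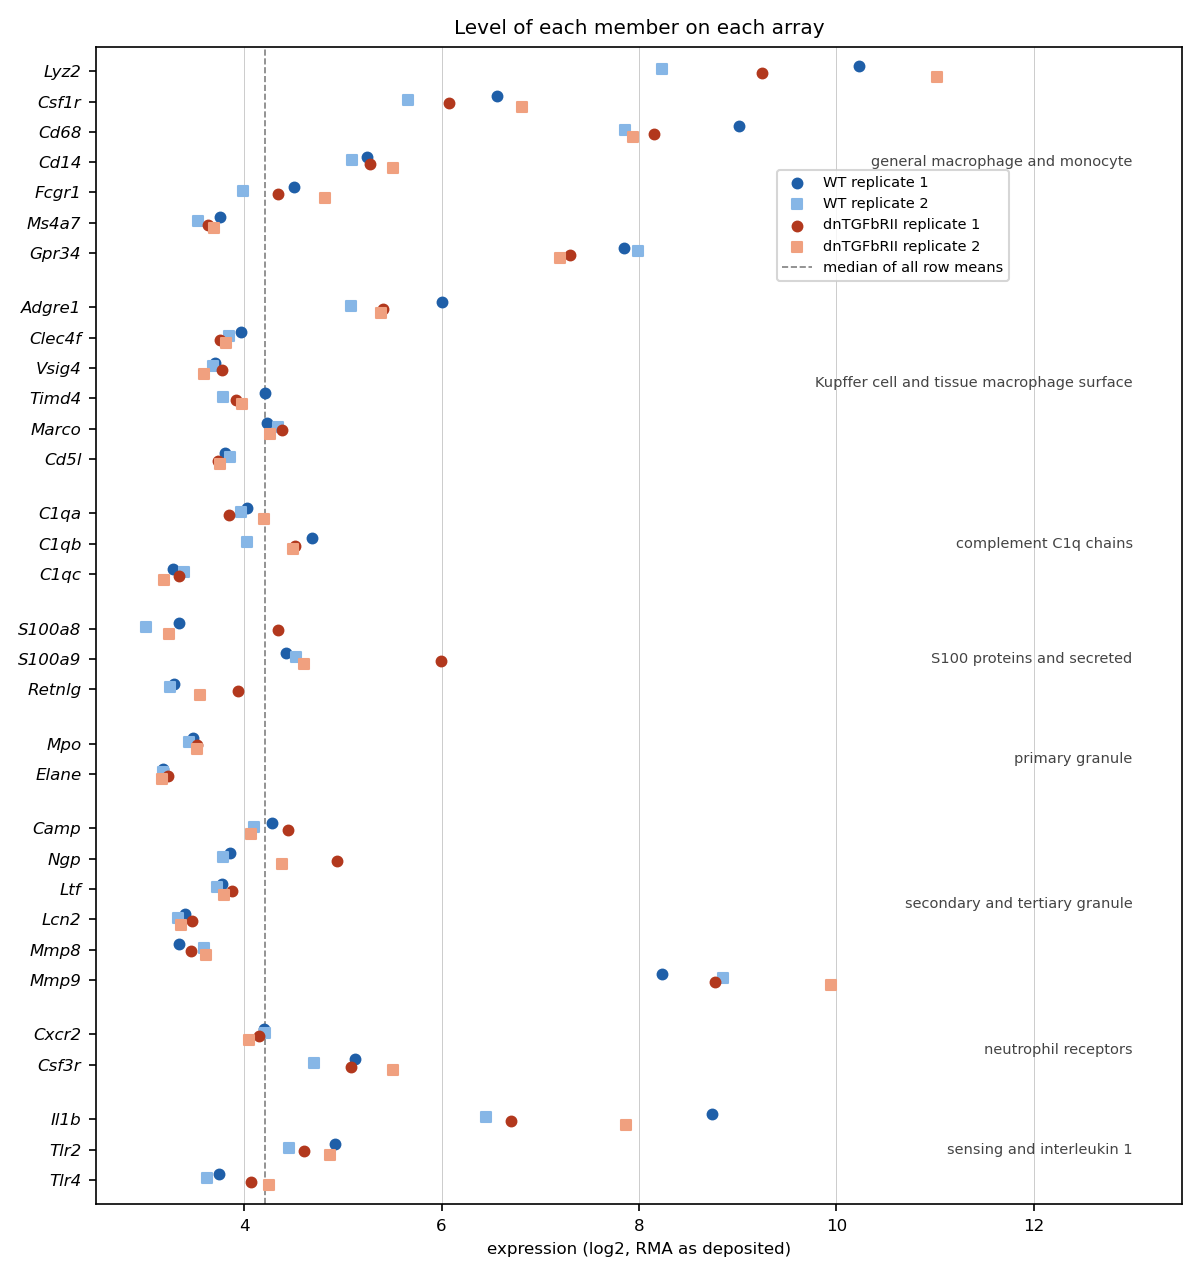
Each row is a member and each point its level on 1 array (x axis, log2 expression as deposited), with genotype by colour, replicate by shape and the median of all row means as a dashed line. Kupffer cell surface genes other than Adgre1 sit between 3.59 and 4.38 on all arrays, while Lyz2 spreads from 8.23 to 11.02 with the genotypes interleaved.

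Over the whole set, no member passed an adjusted p of 0.05 in limma, and neither did any other gene (0.0% of 30142). The lowest adjusted p was 0.619 over all genes and 1 over the members. At an unadjusted p under 0.05, 3 members were higher in dnTGFbRII cells, where 2.62% of all genes were, and 1 was lower, where 1.56% of all genes were. The 3 were Ngp, Tlr4 and Retnlg, and the 1 was Gpr34. Unlike Gpr34, those 3 lay at or below the brightest background control set on every array. Both dnTGFbRII arrays lay above both WT arrays for 7 members (18.6% of all genes) and below both for 4 (12.6% of all genes). Those shares, 7 and 4 of 32, are near the background. No member differed by 2-fold or more in either direction, against 0.481% of all genes. The median difference, dnTGFbRII minus WT, was 0.06 for the members and 0.01 for all genes. Positive differences were found for 22 of the 32 members and 55.1% of all genes. After median centring 20 members were positive, as were 13873 of all 30142 genes. After repeated quantile normalization 19 members were positive, as were 14431 of all genes. Which members were called changed with the array left out, and so did the number of all genes called. With each array left out in turn, the difference of Gpr34 ran from -0.74 to -0.60. That of Cd68 ran from -0.97 to 0.19 and that of Adgre1 from -0.60 to 0.32. With 2 arrays per genotype the smallest p of an exact 2-sided permutation test is 0.333, so each difference is given with its standard error (SE) from limma, at n = 2 per genotype.

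**Figure D2:**
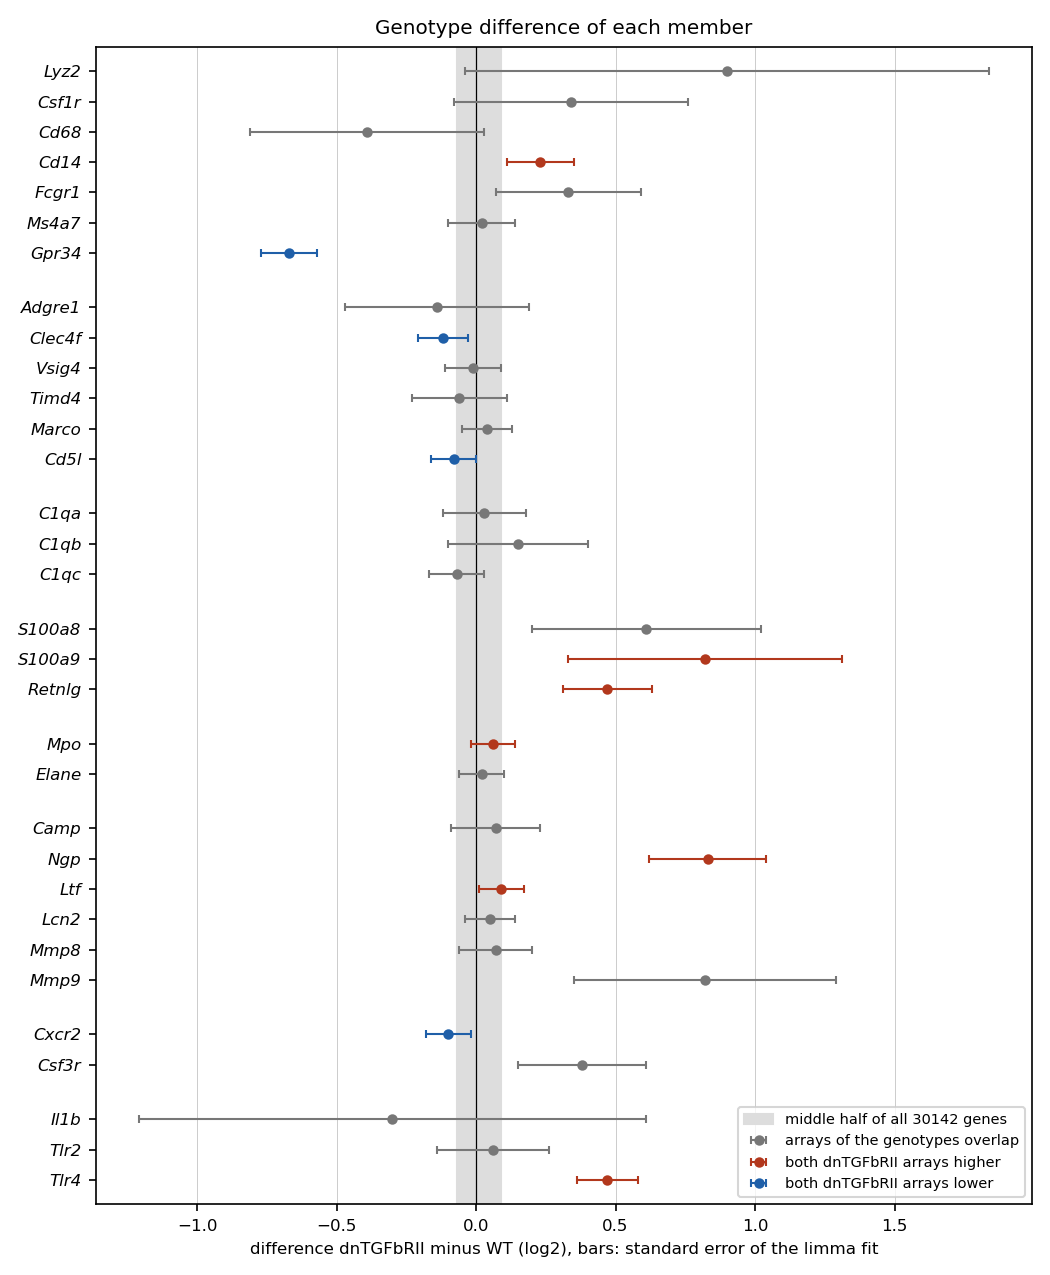
Points give the difference dnTGFbRII minus WT of each member (x axis, log2) with its limma standard error, coloured by whether the arrays of the genotypes overlap, and the grey band runs from the lower to the upper quartile of all 30142 genes (-0.07 to 0.09). Gpr34 at -0.67 lies farthest to the left, and Lyz2 at 0.90 farthest to the right with the widest bar.

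Kupffer cell identity genes were low on every array and differed little between genotypes. Clec4f, a lectin that in mice marks Kupffer cells, measured 3.97 and 3.85 on WT replicates 1 and 2 and 3.76 and 3.82 on the dnTGFbRII replicates. Timd4, a phosphatidylserine receptor of embryo-derived macrophages, measured 4.21 and 3.79 against 3.92 and 3.98. Vsig4, a complement receptor, measured 3.71 and 3.69 against 3.78 and 3.59. All of these values lie below the median of all row means, and for Vsig4 and Timd4 the genotypes overlap, while for Clec4f both dnTGFbRII arrays are lower by a small margin. The difference for Clec4f was -0.12 ± 0.09 (SE), with a 95% interval from -0.36 to 0.13. Marco, a scavenger receptor, ranged from 4.23 to 4.38 and Cd5l, a secreted macrophage protein also called AIM, from 3.74 to 3.86 over the 4 arrays. The widest 95% interval of these 5 genes was that of Timd4, from -0.52 to 0.41. A level near background compresses any change on this scale.

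Adgre1, which encodes the macrophage antigen F4/80, was the 1 member of this role above the background control sets on any array. It measured 6.00 and 5.08 on WT replicates 1 and 2 and 5.41 and 5.39 on dnTGFbRII replicates 1 and 2. WT replicate 1 was the highest array and WT replicate 2 the lowest, with both dnTGFbRII arrays between them. The difference was -0.14 ± 0.33 (SE), with a 95% interval from -1.06 to 0.78. Of the 6 Kupffer cell and tissue macrophage surface genes, 5 had negative differences, and all 6 differences were within 0.2 of zero. Of all 30142 genes, 24938 were within that distance.

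The 3 chains of complement C1q, the recognition unit of the classical complement pathway, are made largely by tissue macrophages. C1qb measured 4.69 and 4.03 on WT replicates 1 and 2 and 4.52 and 4.50 on the dnTGFbRII replicates, so its WT arrays enclosed the dnTGFbRII arrays. C1qa measured 4.03 and 3.97 against 3.85 and 4.20, and C1qc measured 3.28 and 3.39 against 3.34 and 3.19. The chains did not share an order of the arrays, and for each of the 3 the genotypes overlapped. Their differences were 0.15 ± 0.25 for C1qb, 0.03 ± 0.15 for C1qa and -0.07 ± 0.10 for C1qc (SE), and repeated quantile normalization brought that of C1qa to -0.00044.

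Of the 7 general macrophage and monocyte genes, Lyz2, Csf1r, Cd68 and Gpr34 exceeded the background control sets on at least 1 array, and Cd14, Fcgr1 and Ms4a7 did not. For 6 of the 7, all but Gpr34, the arrays of one genotype lay farther apart than the genotypes. Lyz2, lysozyme of macrophages and neutrophils, measured 10.23 and 8.23 on WT replicates 1 and 2 and 9.25 and 11.02 on dnTGFbRII replicates 1 and 2. Its highest level was on dnTGFbRII replicate 2 and its lowest on WT replicate 2, with the genotypes interleaved. Replicate 1 minus replicate 2 was 2.01 in WT and -1.77 in dnTGFbRII cells, against a difference between genotypes of 0.90 ± 0.94 (SE, limma unadjusted p = 0.392). Without WT replicate 2 that difference was -0.10, and without dnTGFbRII replicate 2 it was 0.02. Lyz2 has a close copy in the mouse genome, so its single value is uncertain.

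Csf1r, the receptor for macrophage colony-stimulating factor, took the same order of arrays as Lyz2. It measured 6.56 and 5.66 on WT replicates 1 and 2 and 6.08 and 6.82 on dnTGFbRII replicates 1 and 2, a difference of 0.34 ± 0.42 (SE). Fcgr1, the high-affinity receptor for immunoglobulin G, did so at a lower level, with 4.51 and 3.99 against 4.34 and 4.82. For both genes dnTGFbRII replicate 2 was highest and WT replicate 2 lowest. Cd14, the coreceptor that hands lipopolysaccharide to Tlr4, measured 5.25 and 5.09 on the WT replicates and 5.28 and 5.51 on the dnTGFbRII replicates. Both dnTGFbRII arrays were above both WT arrays for Cd14, and the difference was 0.23 ± 0.12 (SE). Ms4a7, a membrane protein of macrophages, stayed between 3.53 and 3.76 on all 4 arrays.

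Cd68, a lysosomal glycoprotein abundant in macrophages, followed WT replicate 1 alone. It measured 9.01 and 7.86 on WT replicates 1 and 2 and 8.15 and 7.94 on dnTGFbRII replicates 1 and 2. The other 3 arrays lay close together, and the difference between genotypes was -0.39 ± 0.42 (SE). Dendritic cells also carry Cd68, and 14 of 16 dendritic cell markers were highest on WT replicate 1 (22.7% of all genes). The mean of these 16 markers was 9.68 there, against 8.25 on WT replicate 2 and 7.40 and 7.43 on the dnTGFbRII replicates. The part of dendritic cell RNA in the values of Cd68 and Adgre1 was not tested.

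Gpr34, a receptor for lysophosphatidylserine found on macrophages and several lymphoid cells, had the lowest p of the members. It measured 7.85 and 7.99 on WT replicates 1 and 2 and 7.30 and 7.20 on dnTGFbRII replicates 1 and 2. Both dnTGFbRII arrays were lower than both WT arrays, and the arrays of each genotype lay close together. The difference was -0.67 ± 0.10 (SE), 1.59-fold lower in dnTGFbRII cells, with a limma unadjusted p of 0.00219 and an adjusted p of 1. Unlike Lyz2, Csf1r and Cd68, it was not higher on WT replicate 1, and WT replicate 1 minus WT replicate 2 was -0.13. The part of dendritic cell RNA in the value of Gpr34 was not tested.

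Across the 16 macrophage and monocyte members the median difference was 0.00, and 8 were positive and 8 negative. With each array centred on its median, 7 were positive (13873 of all 30142 genes) and the median was -0.02. After repeated quantile normalization 6 were positive (14431 of all genes) with a median of -0.03, so the direction depended on the scaling. It also depended on single arrays. Without WT replicate 2, 3 were positive and 13 negative (median -0.10), where 16515 of all genes were positive. Without WT replicate 1, 10 were positive and 6 negative (median 0.15), where 16487 of all genes were positive. The gap between 2 arrays of one genotype was larger than the difference between genotypes for 13 of the 16, where 79.6% of all genes had such a gap. WT replicate 2 was the lowest array for 9 of the 16 (7334 of all 30142 genes), and no other array was lowest for more than 3.

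**Figure D3:**
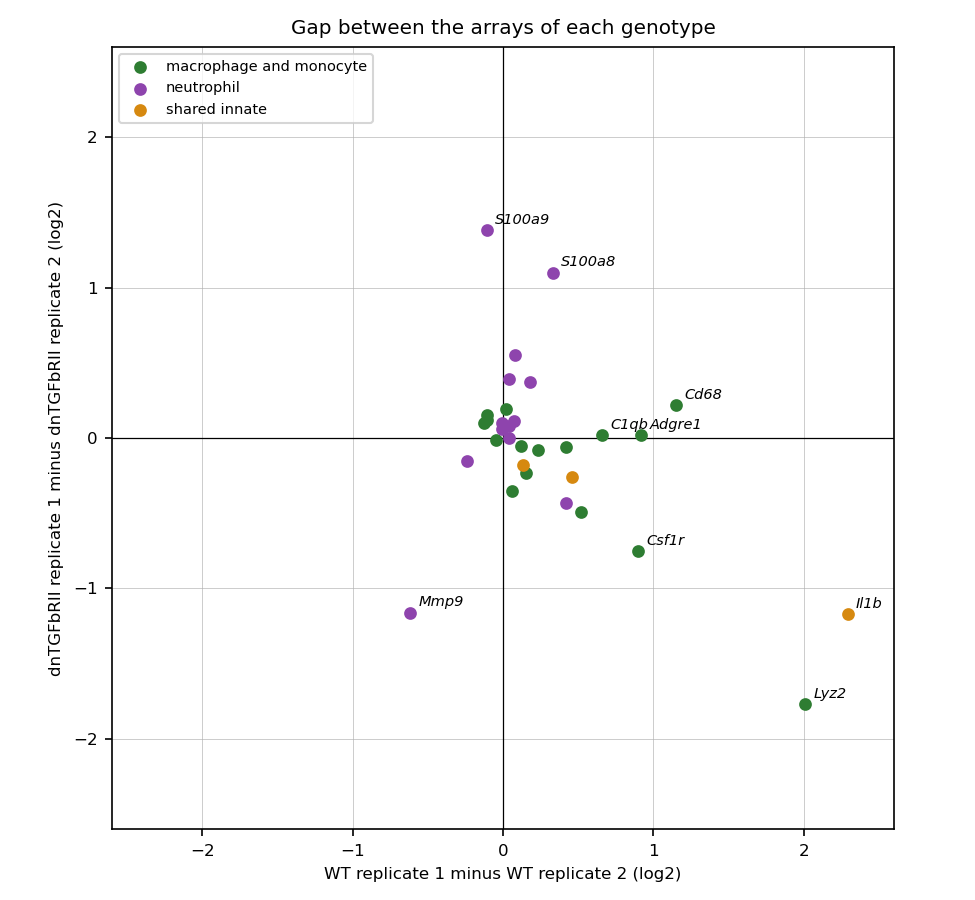
Each point is a member, placed by WT replicate 1 minus WT replicate 2 (x axis, log2) and dnTGFbRII replicate 1 minus dnTGFbRII replicate 2 (y axis, log2). Lyz2 and Il1b lie far to the lower right, higher on WT replicate 1 and dnTGFbRII replicate 2, while S100a8 and S100a9 lie at the top, higher on dnTGFbRII replicate 1.

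In the plot of the gaps within each genotype, the members with wide gaps varied along different arrays. Of the 32, 13 were higher on WT replicate 1 than on WT replicate 2 and higher on dnTGFbRII replicate 2 than on dnTGFbRII replicate 1, an order found in 17.0% of all genes. They include Lyz2, Csf1r, Fcgr1, Cd14, Csf3r and all 3 genes of innate sensing. The count is by sign alone. It also takes in members near background with small gaps, such as Mpo (0.04 in WT and -0.0 in dnTGFbRII cells) and Clec4f (0.12 and -0.05). This order was looked for after the values were seen and is a description of these 4 arrays. It compares arrays within a genotype, so it does not describe the difference between genotypes. The genotypes overlapped for Lyz2, Csf1r, Fcgr1, Csf3r, Il1b and Tlr2 but not for Cd14, Tlr4, Mpo and Clec4f. Other genes show it too, since 13 of the 19 other monocyte genes had that order.

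Among the 3 innate sensing genes, Il1b had the largest gap within a genotype of any member. Il1b, the inflammatory cytokine interleukin-1 beta, measured 8.74 and 6.45 on WT replicates 1 and 2 and 6.70 and 7.87 on dnTGFbRII replicates 1 and 2. Its WT arrays, 2.29 apart, enclosed both dnTGFbRII arrays, and the difference was -0.30 ± 0.91 (SE). Tlr2, the receptor for bacterial lipopeptides, measured 4.92 and 4.46 against 4.61 and 4.87, which also overlapped.

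For Tlr4, the receptor for lipopolysaccharide, the genotypes did not overlap. It measured 3.75 and 3.62 on WT replicates 1 and 2 and 4.07 and 4.25 on dnTGFbRII replicates 1 and 2. Both dnTGFbRII arrays were higher, by a difference of 0.47 ± 0.11 (SE, 1.39-fold), with a limma unadjusted p of 0.012 and an adjusted p of 1. Its mean lay below the median of all row means, so the level is near that of genes that may not be expressed.

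Of the 13 neutrophil members, 12 had a positive difference, against 55.1% of all genes, and the median was 0.09. The count is by sign alone, and 7 of the 13 differences were within 0.2 of zero (24938 of all 30142 genes). On every array, 11 of the 13 lay at or below the brightest background control set (59.7% of all genes). Without dnTGFbRII replicate 1, 9 were positive and the median was 0.06. With each array centred on its median or quantile normalization repeated, 11 were positive, with medians of 0.06 and 0.05. Of these 13 genes, 8 were highest on dnTGFbRII replicate 1, which was the highest array for 32.2% of all genes. Both dnTGFbRII arrays lay above both WT arrays for 5 of the 13 (18.6% of all genes) and below both for 1 (12.6% of all genes).

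S100a8 and S100a9, whose products pair as calprotectin and fill the cytosol of neutrophils and monocytes, were highest on dnTGFbRII replicate 1. S100a9 measured 4.42 and 4.53 on WT replicates 1 and 2 and 5.99 and 4.61 on dnTGFbRII replicates 1 and 2. S100a8 measured 3.34 and 3.01 against 4.34 and 3.24. For both genes dnTGFbRII replicate 2 lay close to the WT arrays, and for S100a8 it lay between them. The differences were 0.82 ± 0.49 for S100a9 and 0.61 ± 0.41 for S100a8 (SE). Without dnTGFbRII replicate 1 they were 0.13 and 0.06.

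Retnlg and Ngp followed the same array but were also higher on the other dnTGFbRII array. Ngp, a neutrophil granule protein of the cystatin family, measured 3.86 and 3.79 on WT replicates 1 and 2 and 4.94 and 4.38 on dnTGFbRII replicates 1 and 2. Its difference was 0.83 ± 0.21 (SE, 1.78-fold), with a limma unadjusted p of 0.0161 and an adjusted p of 1. Retnlg, a resistin-like secreted protein, measured 3.29 and 3.25 against 3.94 and 3.55, a difference of 0.47 ± 0.16 (SE, unadjusted p = 0.0391, adjusted p = 1). The WT arrays of both genes lay close together. On every array both genes, and S100a8 too, lay at or below the brightest background control set, so they may not be expressed. Without dnTGFbRII replicate 1 the differences were 0.56 for Ngp and 0.28 for Retnlg.

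Many T cell, mast cell and basophil markers were also highest on dnTGFbRII replicate 1, as were 32.2% of all genes. This held for 10 of 13 T cell markers, whose mean was 8.17 there, 7.86 on dnTGFbRII replicate 2, and 7.46 and 7.21 on WT replicates 1 and 2. At an unadjusted p under 0.05 in limma, 6 of the 13 T cell markers were higher in dnTGFbRII cells (2.62% of all genes). At that level 1, Cd3g, was lower (1.56% of all genes), and the median difference of the 13 was 0.48. Cd3g had the highest mean of these markers, with 15.9 and 15.81 on WT replicates 1 and 2 and 15.47 and 15.34 on the dnTGFbRII replicates. Whether the T cell markers show other cells here was not tested. Of the 7 mast cell and basophil markers 6 were highest on dnTGFbRII replicate 1, with array means between 3.85 and 4.07. All 7 lay at or below the brightest background control set on every array. The part of other cells in the neutrophil values was not tested.

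Granule genes other than Ngp and Mmp9 lay low and close together. Mpo and Elane, the peroxidase and elastase of primary granules, ranged from 3.44 to 3.52 and from 3.17 to 3.23 over the 4 arrays. Of the secondary granule genes, Ltf, which encodes lactoferrin, measured 3.78 and 3.73 on WT replicates 1 and 2 and 3.88 and 3.80 on dnTGFbRII replicates 1 and 2. Lcn2, a siderophore-binding lipocalin, ranged from 3.33 to 3.47 and Mmp8, the neutrophil collagenase, from 3.34 to 3.61. Camp, the cathelicidin antimicrobial peptide, measured 4.28 and 4.10 against 4.45 and 4.07. The genotypes overlapped for Elane, Lcn2, Mmp8 and Camp, while for Mpo and Ltf both dnTGFbRII arrays were higher, by differences of 0.06 ± 0.08 and 0.09 ± 0.08 (SE).

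Mmp9, gelatinase B, is stored in tertiary granules but is also made by macrophages and lymphocytes. It measured 8.23 and 8.85 on WT replicates 1 and 2 and 8.77 and 9.94 on dnTGFbRII replicates 1 and 2. In contrast to the S100 genes its highest array was dnTGFbRII replicate 2, and dnTGFbRII replicate 1 lay between the WT arrays. The difference was 0.82 ± 0.47 (SE, unadjusted p = 0.156), and 0.24 without dnTGFbRII replicate 2. Of the 13 neutrophil members, Mmp9 and S100a9 were the 2 that exceeded the background control sets on any array.

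The receptors of mature neutrophils had differences of opposite sign. Cxcr2, the chemokine receptor that draws neutrophils into tissue, measured 4.20 and 4.21 on WT replicates 1 and 2 and 4.15 and 4.05 on dnTGFbRII replicates 1 and 2, with a difference of -0.10 ± 0.08 (SE). Csf3r, the receptor for granulocyte colony-stimulating factor, which monocytes also carry, measured 5.12 and 4.71 against 5.08 and 5.51. It took the order of Lyz2 and Csf1r, not that of the S100 genes, and its difference was 0.38 ± 0.23 (SE). Ly6g, the surface antigen used to identify mouse neutrophils and named here outside the naming rule, measured 4.41 and 4.46 on the WT arrays. On the dnTGFbRII arrays it measured 4.36 and 4.14, a difference of -0.18 ± 0.11 (SE). On every array it lay at or below the brightest background control set. Of the 20 other neutrophil genes it was taken from, both dnTGFbRII arrays were higher for 10 (18.6% of all genes) and lower for 4 (12.6% of all genes).

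**Figure D4:**
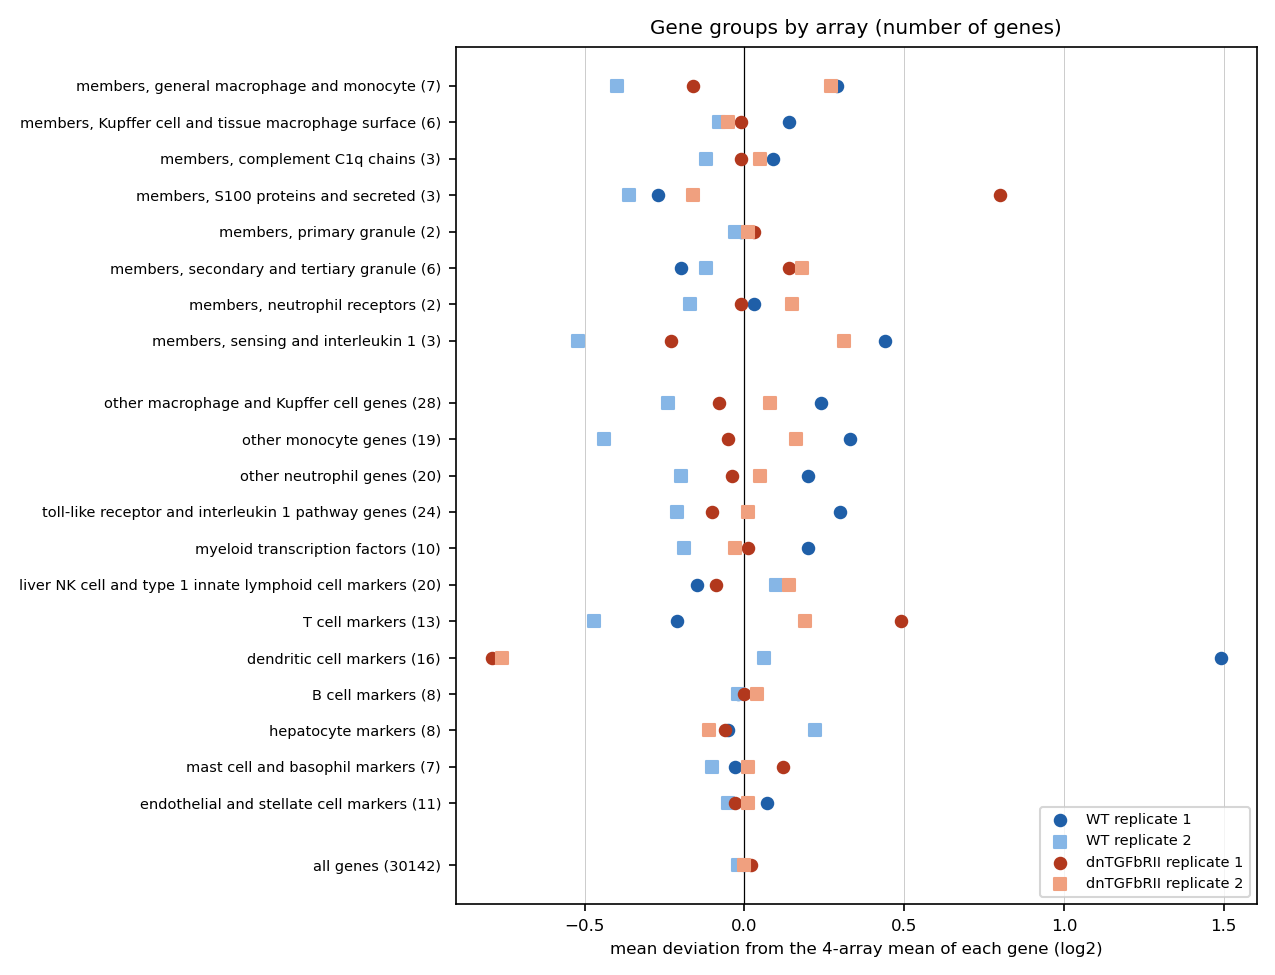
Points give, for each group of genes, the mean deviation on each array from the 4-array mean of its genes (x axis, log2), with the number of genes in parentheses, genotype by colour and replicate by shape. The S100 and secreted members reach 0.80 on dnTGFbRII replicate 1, general macrophage and monocyte members are at 0.29 and 0.27 on WT replicate 1 and dnTGFbRII replicate 2, and dendritic cell markers reach 1.49 on WT replicate 1.

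Other genes of the same cell types were read from separate lists. The 28 other macrophage and Kupffer cell genes had a median difference of 0.02. At an unadjusted p under 0.05 in limma, 1 was higher (2.62% of all genes) and 0 lower (1.56% of all genes). The 1 was Fcgr4, an activating receptor for immunoglobulin G on monocytes, macrophages and neutrophils. It measured 6.13 and 4.60 on WT replicates 1 and 2 and 7.23 and 7.45 on dnTGFbRII replicates 1 and 2, a difference of 1.98 ± 0.55 (SE, unadjusted p = 0.0223). Both dnTGFbRII arrays were higher, although the WT arrays lay 1.53 apart. Next by test statistic were Cd81, a tetraspanin (-0.66 ± 0.33), Itgam, the integrin chain CD11b that NK cells also carry (-0.31 ± 0.18), and Spic, a transcription factor of red pulp macrophages (0.20 ± 0.12).

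The 19 other monocyte genes had a median difference of 0.03. At that level of p, 1 was lower (1.56% of all genes) and 0 higher (2.62% of all genes). S100a4, which is also abundant in lymphocytes, measured 11.40 and 11.26 on the WT arrays and 10.75 and 11.05 on the dnTGFbRII arrays (difference -0.43 ± 0.14 SE, unadjusted p = 0.0349). Cx3cr1, the fractalkine receptor of patrolling monocytes and some NK cells, measured 6.69 and 6.03 against 7.23 and 6.78, and Ccr2, the receptor that brings inflammatory monocytes into tissue, 9.43 and 9.21 against 9.96 and 9.54. For both receptors the dnTGFbRII arrays were higher, by 0.64 ± 0.29 and 0.43 ± 0.18 (SE). Plac8 differed by 0.80 ± 0.49 and was lowest on WT replicate 2, as were 12 of the 19 (7334 of all 30142 genes).

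Among 20 other neutrophil genes, 4 were higher (2.62% of all genes) and 3 lower (1.56% of all genes) at an unadjusted p under 0.05 in limma, and the median difference was 0.07. Both dnTGFbRII arrays were above both WT arrays for 10 of the 20 (18.6% of all genes) and below both for 4 (12.6% of all genes). Differences of 2-fold or more were found for 5 (0.481% of all genes). On every array, 12 of the 20 lay at or below the brightest background control set. Pglyrp1, a peptidoglycan recognition protein of neutrophil granules that is also expressed in NK cells, measured 11.70 and 11.99 on WT replicates 1 and 2 and 12.71 and 13.03 on dnTGFbRII replicates 1 and 2. The difference was 1.02 ± 0.17 (SE, unadjusted p = 0.00369). Acod1, the enzyme that makes itaconate in activated macrophages, measured 5.30 and 4.87 against 6.47 and 7.18, a difference of 1.74 ± 0.30 (unadjusted p = 0.00443). Hp, haptoglobin, measured 5.16 and 4.95 against 5.65 and 5.80, a difference of 0.68 ± 0.12 (unadjusted p = 0.00467). For all 3 genes the dnTGFbRII arrays were higher than the WT arrays and neither genotype's arrays were more than 0.71 apart. In each, dnTGFbRII replicate 2 was above dnTGFbRII replicate 1, so these genes did not take the order of the S100 genes. None passed an adjusted p of 0.05.

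Il1r2, the decoy receptor that traps interleukin-1, had the largest negative difference of all 30142 genes. It measured 10.46 and 7.34 on WT replicates 1 and 2 and 5.33 and 4.98 on dnTGFbRII replicates 1 and 2, a difference of -3.74 ± 1.11 (SE, unadjusted p = 0.0275). Both dnTGFbRII arrays were lower, and the WT arrays lay 3.12 apart. Dendritic cell markers took the same order of the WT arrays, with H2-Ab1, a class II chain, at 15.72 and 13.40 in WT and 11.29 and 11.73 in dnTGFbRII cells. All 16 dendritic cell markers had negative differences, with a median of -1.03. Of them, 8 were lower at an unadjusted p under 0.05 in limma (1.56% of all genes). Their part in the value of Il1r2 was not tested.

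**Figure D5:**
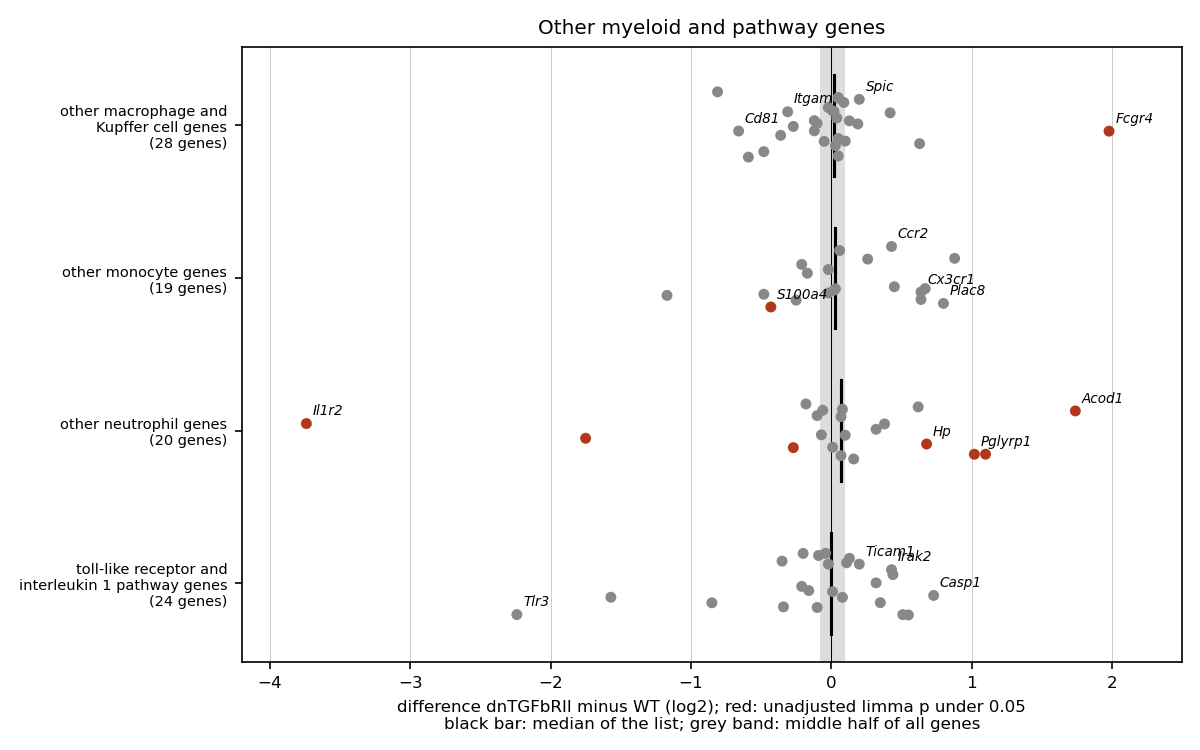
Each point is a gene of 1 of 4 lists placed by its difference dnTGFbRII minus WT (x axis, log2), red at an unadjusted limma p under 0.05, with the list median as a bar and the quartiles of all genes in grey. Medians lie between 0.00 and 0.07, and Il1r2 at -3.74 and Tlr3 at -2.24 lie farthest out below zero, with Fcgr4 at 1.98 farthest above.

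Genes of toll-like receptor and interleukin-1 signalling divided evenly, with 12 of 24 differences positive and 12 negative. None of the 24 reached an unadjusted p under 0.05 in limma. Casp1, the protease that matures interleukin-1 beta, measured 12.88 and 12.40 on the WT arrays and 13.71 and 13.02 on the dnTGFbRII arrays, a difference of 0.73 ± 0.31 (SE). Irak2, a kinase downstream of these receptors, differed by 0.43 ± 0.16 and Ticam1, an adaptor of Tlr3 and Tlr4, by 0.20 ± 0.09, each higher on both dnTGFbRII arrays. Tlr3, the receptor for double-stranded RNA, measured 7.25 and 4.89 on WT replicates 1 and 2 against 3.82 and 3.84, a difference of -2.24 ± 0.83, in the order of the dendritic cell markers. Of 10 myeloid transcription factors, Runx1 alone reached an unadjusted p under 0.05, with a difference of 0.37 ± 0.11 (2.62% of all genes were higher). The median of the 10 was -0.01. Markers of B cells (8 genes), hepatocytes (8) and endothelial and stellate cells (11) had median differences of 0.03, 0.02 and -0.01, with no gene at an unadjusted p under 0.05.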

How the data were processed

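The deposited values are log2 expression, 1 column per array; the submitters' processing notes name RMA and Affymetrix Expression Console. For their versions, the annotation release and the genome build, each is not given in the sources used here; coordinates are left out. RMA shrinks differences of rows near background.

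Of 72688 rows, 30604 name 1 gene in the platform annotation, 2146 several, and 39938 are not listed there. Symbols were updated to a mouse reference table (GRCm38.p6, names only), which matched 30294 rows. This left 30142 genes, each taken from its brightest one-gene row by mean. Groups and replicate numbers were taken from sample titles. Identical values made up 0.044% or less of any pair of arrays.

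The test of genotype used limma 3.58.1 under R 4.3.3 (eBayes after lmFit, prior constant over levels, 2-sided, no level filter), adjusted by Benjamini-Hochberg over all 30142 genes, with a threshold of 0.05. On simulated arrays for this comparison (30142 genes, 5 runs), 25.6% of simulated log2 differences of 1 and 78% of those of 3 were recovered. The changed genes were drawn at random and the noise was independent between genes and arrays. These shares therefore need not hold for genes with wide gaps within a genotype, such as Il1r2.

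Members and lists (12 lists, 183 of 198 genes with a row) were chosen with earlier results of these data known, and each list's median and counts are descriptions. All members may be named; of each other list, up to 4 genes with the largest test statistics, and of marker lists also the 4 highest means. Genes named outside this are marked. Alternatives were another prior, 2 level filters, repeated quantile normalization, median centring, averaged rows, a block on the replicate number, a 0.1 false discovery rate and leaving out every array once; the array then alone in its genotype is taken to vary as the other genotype's pair does.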

Additional observations from a re-analysis of the deposited data

How the results depend on the processing

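No gene and no member passed the adjusted threshold in limma under any of the 12 alternatives. At an unadjusted p under 0.05, 790 genes were higher and 469 lower, and with each array centred on its median 627 were higher and 639 lower. The replicate numbers are shared between genotypes, but nothing says what they mark. Deviations of same-numbered arrays correlated with r = 0.4344 over all genes and -0.503 over the 32 members, across genes and with no test. A replicate block in the fit gave 1373 higher and 1079 lower genes at that level, with 5 members higher and 1 lower (3 and 1 without it), and 0 passed the adjusted threshold.

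With a filter at the median of row means, which kept 16 members, the median difference was 0.19 for members. It was 0.15 for the 9 macrophage and monocyte and 0.82 for the 5 neutrophil members that passed. Of those 5, Ngp passed only through its dnTGFbRII arrays, at 4.94 and 4.38. Its WT values, 3.86 and 3.79, lay below the cutoff, and the median without Ngp was not computed. At the 75th percentile (5 members) the median was -0.30 for members and -0.39 for the 3 macrophage and monocyte members. The 1 neutrophil member that passed there was Mmp9, so 0.82 is its difference alone. With fewer members left, these medians are of other sets of genes. Leaving out each array in turn gave medians from -0.011 to 0.174 for the 32 members, -0.096 to 0.147 for macrophage and monocyte and 0.063 to 0.174 for neutrophil members.

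Gpr34 (-0.74 to -0.60), Tlr4 (0.38 to 0.56), Ngp (0.56 to 1.11) and Retnlg (0.28 to 0.67) kept their sign when each array was left out, which arrays that do not overlap fix. Signs turned with an array left out for Lyz2 (-0.10 to 1.91), Il1b (-1.45 to 0.84), Cd68 (-0.97 to 0.19), Csf1r (-0.11 to 0.79), Adgre1 (-0.60 to 0.32), C1qb (-0.18 to 0.48), Timd4 (-0.27 to 0.16), Tlr2 (-0.17 to 0.29), Camp (-0.12 to 0.26), C1qa (-0.15 to 0.20), Mmp8 (-0.055 to 0.19), Ms4a7 (-0.093 to 0.14), Vsig4 (-0.11 to 0.08), C1qc (-0.15 to 0.0015), Marco (-0.023 to 0.094), Lcn2 (-0.0029 to 0.10) and Elane (-0.013 to 0.047). Centring turned Elane (-0.008) and Ms4a7 (-0.002), and repeated quantile normalization turned Elane (-0.019), Ms4a7 (-0.012) and C1qa (-0.00044). None of these differences passed the adjusted threshold. The lower ends of the ranges of Cd68 and Adgre1 came without WT replicate 2, and the upper end of that of C1qb without WT replicate 1. Signal over background limits most members, since 24 of 32 never exceeded the brightest background control set.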
